A study of Rattus norvegicus with 9 samples.

Results

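The insulin-like growth factor (IGF) system was described through the probe sets of its ligands (Igf1, Igf2), receptors (Igf1r, Igf2r) and binding proteins (Igfbp2 to Igfbp6). All probe sets annotated to 1 of these 9 genes alone were taken, which gave 23 of the 8740 probe sets tested: 11 for the ligands, 3 for the receptors and 9 for the binding proteins. Igfbp4 had no such probe set, so 8 of the 9 genes were measured. The genes were chosen with results of these arrays known, so their values with and without BMP-7 are given as a description and carry no p-value.

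Sympathetic neurons dissociated from superior cervical ganglia (SCG) of Holtzman rat embryos at day 21 were exposed to bone morphogenetic protein-7 (BMP-7), which induces dendrites in these cells, and RNA was hybridized to Affymetrix Rat Genome U34A arrays. The 9 arrays covered 3 conditions with 3 replicates each: control neurons kept in medium without BMP-7 for 24 hr, a 6 hr exposure to BMP-7 at 50 ng/ml (BMP6h), and a 24 hr exposure to the same dose (BMP24h). All cultures, control included, were grown without serum on collagen-coated dishes with nerve growth factor at 100 ng/ml, and all had been treated with the antimitotic Ara-C to deplete non-neuronal cells. The replicates came from 3 dissections, each giving a sample of every condition, and the cells of several dishes were pooled for each sample. The labels name no 6 hr control. Per the study's Methods, RNA of all conditions was isolated at the same time, on day 6 in vitro, so control and exposed cultures had the same age at harvest.

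IGF-I and IGF-II are small secreted peptides that act mainly through the IGF-I receptor, a tyrosine kinase that engages the PI3K/Akt and Ras/MAP kinase branches. The IGF-II receptor, which also carries mannose 6-phosphate tagged enzymes, takes IGF-II to lysosomes and so removes it. The binding proteins hold IGFs outside the cell with high affinity and set how much ligand reaches the receptor. In cultured sympathetic neurons, IGFs are known to support survival and neurite growth.

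Values are log2 expression values after robust multi-array averaging (RMA) and removal of the batch difference by the authors, and they ran between 2.69 and 14.38. RMA values have no true zero and came without detection calls, so a dim probe set cannot be read as an absent transcript, and levels of different probe sets are not compared with each other. Neurons were well represented: the catecholamine enzymes Th and Dbh averaged 13.49 and 11.94 in control cultures. BMP6h replicate 2 stood apart: 9.99% of all probe sets deviated there by over 1 log2 unit from the average of BMP6h replicates 1 and 3, and the same measure was 4.21% or less on every other array. On that array 17 of the 23 IGF probe sets lay below the other 2 BMP6h arrays, with a median deviation of -0.32. A probe set was called with limma at a Benjamini-Hochberg adjusted p under 0.05, or by the thresholds in the study's Methods, which take fold changes of 1.2 or more whose p before adjustment is under 0.05.

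The largest difference in the IGF system at 24 hr was in Igfbp3, which encodes the main carrier of IGFs in serum and is also made locally by many tissues. The study had named Igfbp3 as lower with BMP-7 on these same arrays, and as raised by BMPs in other systems. The values of Igfbp3 here are therefore not independent of that report. With its brighter probe set, M31837_at, Igfbp3 was 8.47, 8.35 and 9.06 in control replicates 1 to 3, 8.13, 8.37 and 8.08 in BMP6h, and 7.58, 7.59 and 6.90 in BMP24h. The 3 arrays at 24 hr lay below all 6 others, whereas BMP6h and control overlapped through BMP6h replicate 2 and control replicate 2. Igfbp3 averaged 7.36 ± 0.40 in BMP24h and 8.63 ± 0.38 in control (SD, n = 3 each), a log2 fold change of -1.27 (SE 0.26), or 2.41-fold lower. At 6 hr it averaged 8.19 ± 0.16, a log2 fold change of -0.43 (SE 0.26) against control and of -0.53 (SE 0.29) without BMP6h replicate 2, so the order of the means was control, 6 hr, 24 hr, and only the step to 24 hr separated the arrays. The log2 fold change of BMP24h over BMP6h was -0.84 (SE 0.26). In pooled cultures, fewer cells of a type and less RNA per cell cannot be told apart.

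The difference of M31837_at at 24 hr kept its sign in both processing batches and without each array in turn, although its size varied. In batch 1, with 1 array a condition, BMP24h minus control was -0.89, and in batch 2 alone it was -1.46. BMP24h replicate 3 held the lowest Igfbp3 value and control replicate 3 the highest. Across 19 alternatives, which included leaving out each array, the log2 fold change stayed between -1.46 and -0.99.

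The other Igfbp3 probe set, rc_AI009405_s_at, was also lowest at 24 hr, by a smaller amount. Its values were 6.83, 6.97 and 6.92 in control, 6.81, 5.76 and 7.14 in BMP6h, and 6.17, 6.35 and 6.49 in BMP24h. All 3 BMP24h arrays were below all 3 control arrays, with means of 6.33 ± 0.16 in BMP24h and 6.91 ± 0.07 in control (SD, n = 3 each) and a log2 fold change of -0.58 (SE 0.32), 1.49-fold lower. At 6 hr the log2 fold change against control was -0.34 (SE 0.32) with all arrays and 0.10 without BMP6h replicate 2, so its sign turned when that array was left out. BMP24h minus BMP6h was -0.23 with that array and -0.68 without it. The 2 Igfbp3 probe sets correlated over the 9 arrays at r = 0.33, and at r = 0.67 over the 8 arrays without BMP6h replicate 2. The mean over both gave a log2 fold change of -0.92 at 24 hr, smaller in size than that of M31837_at under any alternative.

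**Figure D1:**
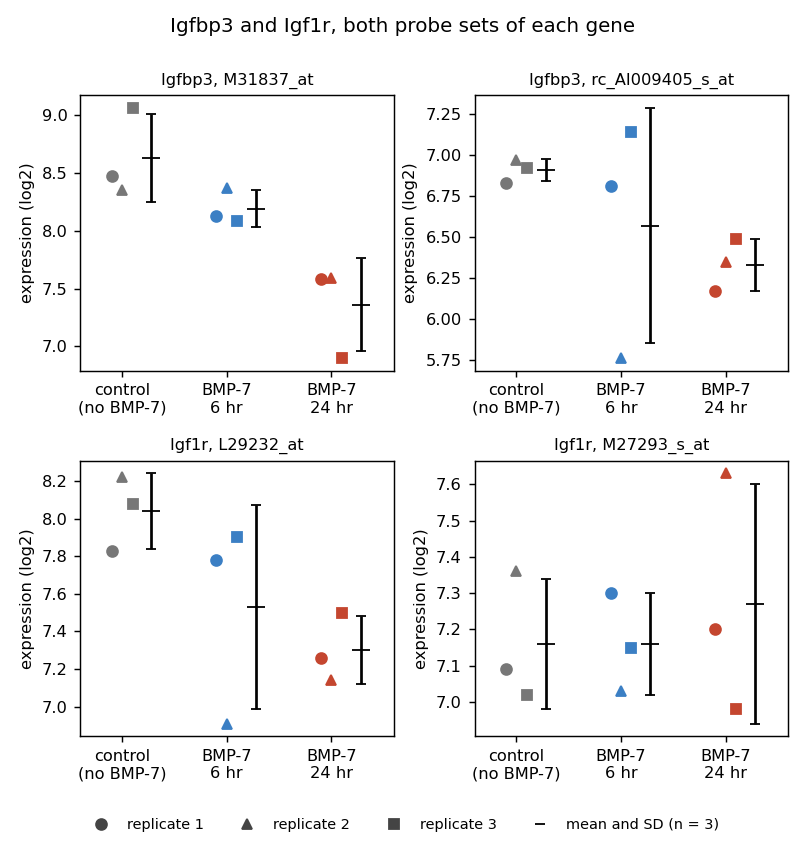
Expression (log2, y axis) of both probe sets of Igfbp3 and of Igf1r in control, BMP-7 6 hr and BMP-7 24 hr cultures; each symbol is 1 array, its shape gives the replicate number, and the bars beside them are the mean and SD (n = 3). Both Igfbp3 probe sets and Igf1r L29232_at lie lower on all 3 arrays at 24 hr than on any control array, while Igf1r M27293_s_at overlaps in every condition, and BMP6h replicate 2 (triangle) is the lowest of the 9 arrays in 2 of the 4 panels.

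Igfbp3 is also expressed by fibroblasts, and the mean of a list of markers of such cells was lower on the same arrays, although single markers went both ways. The mean log2 value of 23 fibroblast and matrix genes measured, of 31 listed, was 8.92 to 9.09 in BMP24h and 9.13 to 9.29 in control, without overlap. BMP24h replicate 3 was the lowest and control replicate 3 the highest of the 9 arrays in this list, as for Igfbp3 M31837_at. At 24 hr 15 of the 23 were lower and 8 higher (median log2 fold change -0.14), and none passed the adjusted test. Dcn and Lum, matrix proteoglycans, had the lowest log2 fold changes of the list, -0.73 and -0.65. Eln and Thy1 had the highest, 0.28 and 0.25. The fibrillar collagens Col1a1 and Col1a2 had log2 fold changes of 0.08 and -0.00. On a scale without a true zero no marker can be called absent, and Col1a1 averaged 10.38 in BMP24h and 10.3 in control. The part of these cells in the Igfbp3 difference was not tested. The lists for neurons (20 genes), satellite glia and Schwann cells (19), endothelial and mural cells (14) and macrophages and blood cells (14) had median log2 fold changes of -0.04, 0.01, 0.02 and 0.08 at 24 hr.

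Igfbp3 lies on the minus strand of rat chromosome 14 beside Igfbp1, its neighbor in the RefSeq annotation. The 250 bases before its RefSeq start (GRCr8, chr14:86277945-86278194, minus strand, written 5′ to 3′) are shown because this gene differed most; capitals mark TATATA, at position -46 from the start.
Igfbp3: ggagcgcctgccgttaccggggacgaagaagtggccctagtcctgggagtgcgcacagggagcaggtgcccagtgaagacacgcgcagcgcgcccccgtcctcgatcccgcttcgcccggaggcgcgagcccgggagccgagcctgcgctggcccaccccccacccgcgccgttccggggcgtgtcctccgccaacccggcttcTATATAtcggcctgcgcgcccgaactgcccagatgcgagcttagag
This stretch has a GC content of 71.6%. Smad and core promoter motifs were searched on both strands. Letters described for BMP-activated Smads, GGCGCC, were not found here. The Smad4 letters CAGACA were absent as well. Neither did the Sp1 box GGGCGG occur. The TATA box TATAAA was not found in this exact spelling. TATATA was searched after the sequence had been seen and occurs in 5.45% of 33469 RefSeq promoter windows of this length. Among the 10 windows of the 9 genes (Igf2 has 2), GGCGCC was in none, against 8.69% of all windows. GGGCGG was in the windows of Igf1r, Igf2r, Igfbp2 and 1 of those of Igf2, against 30.5% of all windows. CAGACA was in 1 Igf2 window and TATAAA in that of Igfbp4 (17.2% and 12.9% of all windows). A match or its absence describes letters in these windows only.

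Igfbp1, which encodes a binding protein best known from liver and was outside the chosen genes, overlapped between conditions. It was 6.18, 6.10 and 5.78 in BMP24h, against 6.23, 6.12 and 6.46 in control, with a log2 fold change of -0.25 (SE 0.23, limma adjusted p = 1.0).

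Among the receptors, Igf1r differed at 1 of its 2 probe sets. Igf1r encodes the tyrosine kinase receptor that answers both IGFs. L29232_at was 7.83, 8.22 and 8.08 in control, 7.78, 6.91 and 7.90 in BMP6h, and 7.26, 7.14 and 7.50 in BMP24h. All arrays at 24 hr were below all control arrays, with means of 7.30 ± 0.18 in BMP24h and 8.04 ± 0.20 in control (SD, n = 3 each) and a log2 fold change of -0.74 (SE 0.27), 1.67-fold lower. The difference was -0.57 in batch 1 and -0.83 in batch 2 alone. At 6 hr the log2 fold change was -0.51 (SE 0.27), but -0.17 without BMP6h replicate 2, which alone lay below the 24 hr arrays. BMP24h minus BMP6h was -0.23 with that array and -0.57 without it.

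The other Igf1r probe set, M27293_s_at, did not share this pattern. It was 7.09, 7.36 and 7.02 in control, 7.30, 7.03 and 7.15 in BMP6h, and 7.20, 7.63 and 6.98 in BMP24h, with overlap in every pair of conditions. The log2 fold change was 0.11 (SE 0.19) at 24 hr and 0.00 at 6 hr. The 2 Igf1r probe sets correlated at r = -0.09 over the 9 arrays, and the mean over both gave a log2 fold change of -0.32 at 24 hr. Which part of the Igf1r transcript each probe set reads was not analysed here.

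Igf2r, the clearance receptor for IGF-II, had the narrowest range of the 23 probe sets, 0.24 log2 units over 9 arrays. Its values were 8.98, 8.95 and 8.99 in control, 8.98, 8.89 and 8.90 in BMP6h, and 8.75, 8.79 and 8.89 in BMP24h. The 24 hr arrays lay below every control array and, before rounding, below every 6 hr array. The means were 8.81 ± 0.07 in BMP24h and 8.97 ± 0.02 in control (SD, n = 3 each), and the log2 fold change was -0.16 (SE 0.11), 1.12-fold lower, smaller than the 1.2-fold minimum of the Methods.

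The ligands showed no separation from control at 24 hr at any of their 11 probe sets. Igf1, which encodes IGF-I, was 10.99, 11.10 and 10.92 in control, 11.02, 10.95 and 10.97 in BMP6h, and 11.06, 11.28 and 10.91 in BMP24h at its brightest probe set, X06107_r_at. These arrays overlapped in all pairs of conditions, and the log2 fold change was 0.08 (SE 0.13) at 24 hr and -0.02 (SE 0.13) at 6 hr. The other 4 Igf1 probe sets had log2 fold changes of -0.26 (M15481_g_at, SE 0.32), -0.14 (D00698_s_at), -0.07 (M15481_at) and 0.12 (X06107_i_at) at 24 hr.

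At 6 hr, M15481_at of Igf1 was the only probe set of the 23 whose arrays did not overlap with control. It was 7.91, 7.41 and 8.01 in BMP6h, against 8.05, 8.05 and 8.14 in control, a log2 fold change of -0.30 (SE 0.17). Without BMP6h replicate 2 the log2 fold change was -0.10. The log2 fold changes of M15481_g_at and X06107_i_at at 6 hr were -0.57 (SE 0.32) and -0.30 (SE 0.21), and -0.25 and -0.05 without that array. X06107_i_at was 4.62, 4.71 and 4.76 in BMP24h, against 4.44, 3.84 and 4.58 in BMP6h, the only probe set of the system that was higher at 24 hr than at 6 hr on every array.

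Igf2, which encodes the fetal growth factor IGF-II, was 8.66, 8.88 and 8.65 in control, 8.67, 8.28 and 8.75 in BMP6h, and 8.69, 8.71 and 8.76 in BMP24h at M17960_g_at. The means were 8.72 ± 0.04 in BMP24h and 8.73 ± 0.13 in control (SD, n = 3 each), and the log2 fold change was -0.00 (SE 0.16). At 24 hr the 3 arrays lay within the range of control. The other 5 Igf2 probe sets had log2 fold changes of -0.17 (M17960_at), -0.01 (X16703_i_at), 0.01 (X17012mRNA_s_at), 0.15 (E00988mRNA_s_at) and 0.28 (X16703_r_at, SE 0.29) at 24 hr. At 6 hr, 5 of the 6 had negative log2 fold changes and E00988mRNA_s_at one of 0.14, and BMP6h replicate 2 was the lowest of the 3 BMP6h arrays at all but E00988mRNA_s_at. Without that array the sign turned at 3 of the 6, to 0.22 at X16703_r_at, 0.01 at X16703_i_at and -0.04 at E00988mRNA_s_at. The other 3 were then -0.10 (X17012mRNA_s_at), -0.07 (M17960_at) and -0.00 (M17960_g_at).

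The binding proteins other than Igfbp3 had log2 fold changes no larger than 0.30 in size at 24 hr. Igfbp2, which encodes a binding protein abundant in the fetal nervous system, gave 3 probe sets with differing signs at 24 hr. Its brightest, M91595exon_s_at, was 7.02, 7.17 and 7.42 in BMP24h, against 7.15, 7.32 and 6.94 in control, a log2 fold change of 0.07 (SE 0.24). A09811cds_s_at was 6.46, 6.52 and 6.54 in BMP24h, against 6.61, 6.64 and 6.79 in control, without overlap and with a log2 fold change of -0.17 (SE 0.12). J04486_at was 5.52, 5.85 and 5.69 in BMP24h, against 5.60, 5.32 and 5.23 in control, with overlap and a log2 fold change of 0.30 (SE 0.16). The 3 probe sets therefore gave no common direction for Igfbp2.

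Igfbp5, which encodes a binding protein that attaches to extracellular matrix and is the neighbor of Igfbp2 in the RefSeq annotation, overlapped between BMP24h and control at all 3 probe sets. At M62781_at it was 6.76, 6.80 and 6.95 in BMP24h, against 6.72, 6.85 and 6.70 in control, a log2 fold change of 0.08 (SE 0.18). The log2 fold changes of rc_AI029920_s_at and rc_AI070577_at were -0.05 (SE 0.31) and 0.05 (SE 0.60). The widest range of the system, 2.64 log2 units, was at rc_AI070577_at, where BMP6h replicate 2 read 7.30 and the other 2 BMP6h arrays 5.32 and 4.66. Its log2 fold change at 6 hr was 0.52 with that array and -0.32 without it.

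Igfbp6, which encodes a binding protein that prefers IGF-II, was 8.61, 8.57 and 8.53 in BMP24h, against 8.67, 8.69 and 8.50 in control. The arrays overlapped, and the log2 fold change was -0.05 (SE 0.15).

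**Figure D2:**
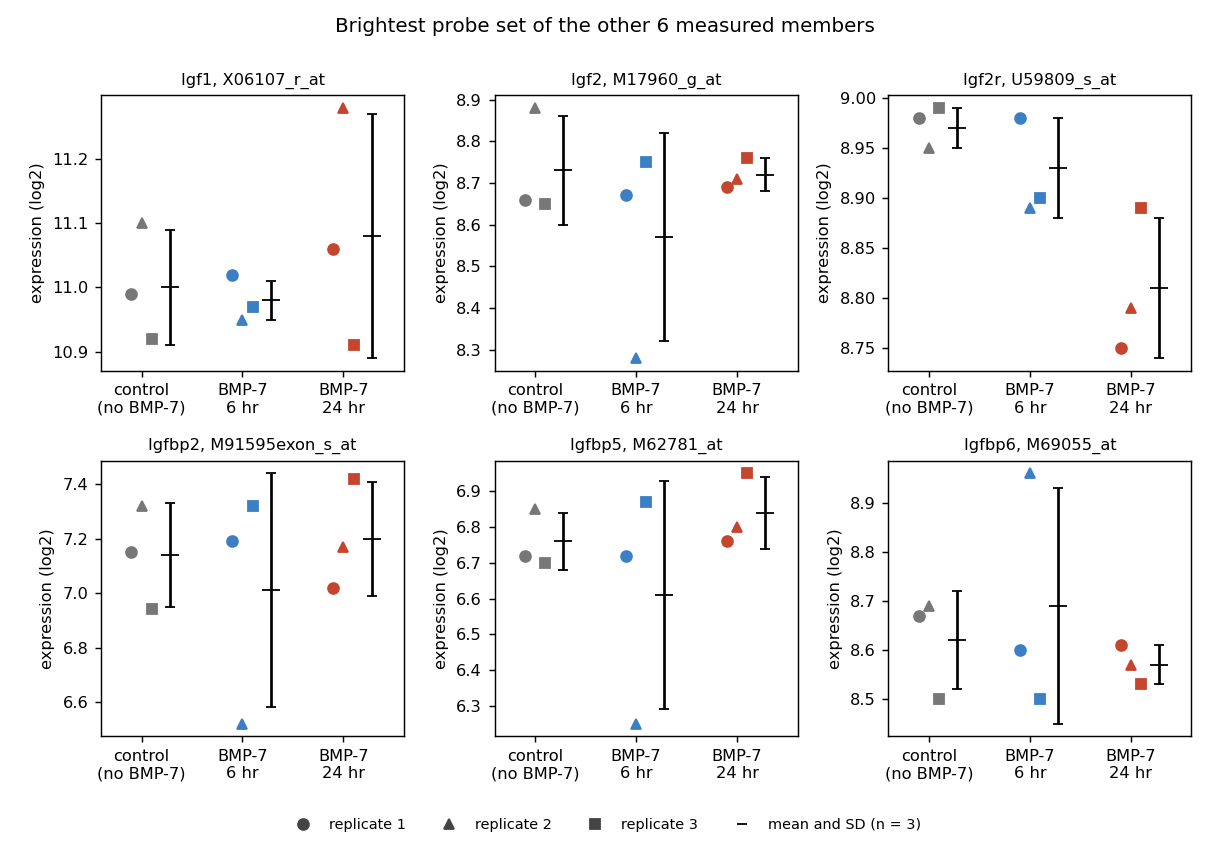
Expression (log2, y axis) of the brightest probe set of Igf1, Igf2, Igf2r, Igfbp2, Igfbp5 and Igfbp6 in control, BMP-7 6 hr and BMP-7 24 hr cultures; each symbol is 1 array, its shape gives the replicate number, and bars are the mean and SD (n = 3). The y axes differ between panels and do not start at 0. Igf2r separates at 24 hr, between 8.75 and 8.89 against 8.95 to 8.99 in control, and the other 5 overlap with control.

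Counted over the system, none of the 23 probe sets passed the adjusted test in any comparison, against 0.217% of all probe sets for BMP24h minus control, 0.0458% for BMP6h minus control and 0% for BMP24h minus BMP6h. At an unadjusted p under 0.05 there were 2 for BMP24h minus control, 1 for BMP24h minus BMP6h and 0 for BMP6h minus control, against 3.4%, 2.96% and 1.73% of all probe sets. The thresholds of the Methods called Igfbp3 M31837_at and Igf1r L29232_at lower at 24 hr, 2 of 23 where 1.74% of all probe sets were called lower, and Igfbp3 M31837_at lower in BMP24h than in BMP6h, where 1.52% were. The call of L29232_at at 24 hr was lost in batch 2 alone, with the analysis of variance of the Methods, and without BMP24h replicate 1, BMP24h replicate 2, control replicate 2 or control replicate 3, while that of M31837_at held in each of these. No IGF probe set was called by them at 6 hr, against 1.73% of all probe sets. At 24 hr, 5 probe sets had every array below every control array (both of Igfbp3, L29232_at, U59809_s_at and A09811cds_s_at), 5 of 23 against 7.07% of all probe sets. Against BMP6h, 3 of 23 did not overlap (9.67% of all), and for BMP6h minus control it was 1 (10.6% of all). Because the genes were chosen with these contrasts known, nothing is read from the shares. Array weights gave BMP6h replicate 2 the lowest weight (0.09) and BMP24h replicate 1 the highest (5.76), against 0.38 and 0.72 for BMP24h replicates 2 and 3. The 24 hr mean then rested mostly on BMP24h replicate 1. With these weights 3 of the 23 passed the adjusted test at 24 hr (both Igfbp3 probe sets and L29232_at, all lower), when 3.2% of all probe sets did. With BMP6h replicate 2 left out instead, 0 of the 23 passed at 24 hr, when 0.297% of all did.

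The median log2 fold change of the 23 probe sets at 24 hr was -0.01, with 10 higher and 13 lower, and that of all probe sets was 0.01. The median absolute value was 0.12 for the system and 0.11 for all probe sets. At 6 hr the median was -0.13, with 5 higher and 18 lower, against -0.02 for all probe sets, but without BMP6h replicate 2 it was -0.04, with 8 higher and 15 lower. Probe sets of 1 gene share transcripts, and all comparisons share arrays, so these counts are not independent.

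**Figure D3:**
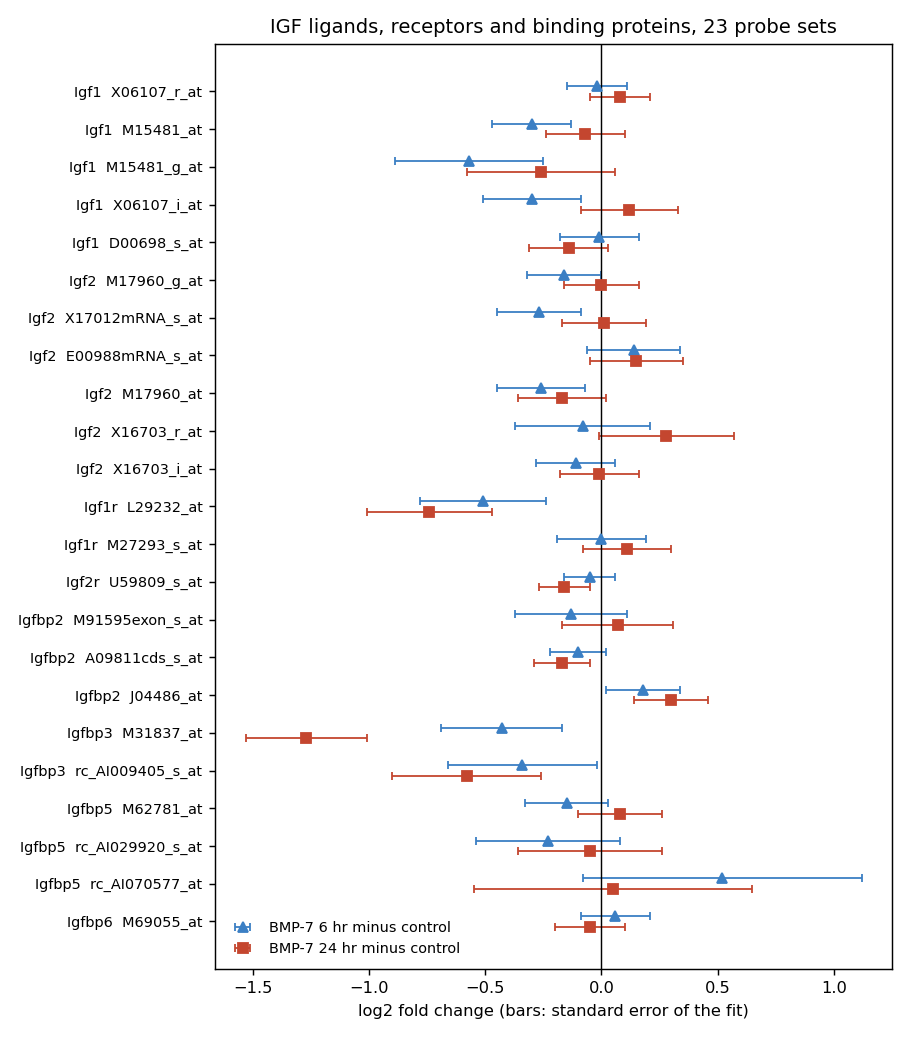
Log2 fold change against control (x axis) of the 23 probe sets (y axis, ligands at the top, then receptors and binding proteins), with blue triangles for 6 hr and red squares for 24 hr of BMP-7 and bars for the standard error of the fit. At 24 hr the points lie between -1.27 for Igfbp3 M31837_at and 0.30 for Igfbp2 J04486_at, and Igfbp3 and Igf1r L29232_at stand farthest to the left.

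Over the 9 arrays, the genes whose pattern was most like that of Igfbp3 M31837_at were Mapt (r = 0.976), Kcnd2 (0.962), Map1a (0.958), Eef2 (0.948) and Aplp2 (0.946), by Pearson correlation on 9 points that share the treatment. All 5 had log2 fold changes smaller in size at 24 hr, between -0.46 for Mapt and -0.16 for Eef2. The study had listed Mapt and Kcnd2, at these probe sets, as lower at 24 hr on these same arrays. Mapt and Map1a encode microtubule-associated proteins, Kcnd2 a potassium channel, Eef2 a translation elongation factor and Aplp2 an amyloid precursor-like protein. Within the IGF system, the correlations with Igfbp3 M31837_at ran between -0.62 (Igf2 X16703_r_at) and 0.67 (Igfbp2 A09811cds_s_at).

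Of 62 other measured genes of IGF and insulin signaling, none passed the adjusted test in any comparison, and 26 were higher and 36 lower at 24 hr (median log2 fold change -0.04, against 0.01 for all 4736 named genes). At an unadjusted p under 0.05 there was 1 gene at 6 hr, 1 at 24 hr and 3 between the times, against 85, 183 and 156 of the 4736 named genes. The 21 genes of PI3K, Akt and mTOR had a median of -0.08 at 24 hr with 7 higher and 14 lower, and of -0.14 at 6 hr with 4 higher and 17 lower, when 2022 of the 4736 named genes were higher and 2714 lower (median -0.03). Without BMP6h replicate 2 the PI3K, Akt and mTOR genes had a median of -0.07 at 6 hr, with 8 higher and 13 lower, and the named genes were 2318 higher and 2418 lower. The 19 insulin receptors and adaptors had a median of -0.04 at 24 hr, the 7 other ligands, carriers and proteases 0.12, the 7 genes of the Ras and MAP kinase branch -0.07, and the 8 of the growth hormone axis 0.04.

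Of these genes, 3 met the thresholds of the Methods in a comparison. Grb10, an adaptor that binds and restrains the insulin and IGF-I receptors, was 9.63, 9.69 and 9.71 in control, 9.60, 9.65 and 9.67 in BMP6h, and 9.23, 9.10 and 9.10 in BMP24h. The 24 hr arrays lay below all 6 others, with a log2 fold change of -0.53 (SE 0.11, limma adjusted p = 0.241) against control and -0.49 (SE 0.11, limma adjusted p = 0.53) against BMP6h. The study selected Grb10 on these same arrays, so this is not independent of them. Its lists of regulated genes also held Ptpn1 and Bad at the probe sets used here. Their log2 fold changes at 24 hr were 0.16 (SE 0.10) and -0.12 (SE 0.10), and neither met the thresholds of the Methods in any comparison. With array weights or an intensity trend in the variance Grb10 passed the adjusted test at 24 hr, when 3.2% and 0.481% of all probe sets did.

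Sh2b2, an adaptor of the insulin receptor, was 7.35, 8.05 and 7.32 in BMP6h, against 7.12, 7.03 and 6.61 in control, a log2 fold change of 0.65 (SE 0.23, limma adjusted p = 0.887). The groups did not overlap, and the highest value was that of BMP6h replicate 2, without which the log2 fold change was 0.39 (SE 0.15). Sh2b2 no longer met the thresholds of the Methods with the 2 conditions alone, with the analysis of variance of the Methods, or without control replicate 3. Rictor, a subunit of mTOR complex 2, was 6.58, 6.33 and 6.86 in BMP24h, against 5.93, 5.29 and 6.28 in BMP6h, a log2 fold change of 0.75 (SE 0.29, limma adjusted p = 0.939), and its lowest value was on BMP6h replicate 2. Without that array the log2 fold change was 0.45 (SE 0.23), and Rictor no longer met the thresholds of the Methods. It did not meet them either without BMP6h replicate 1, BMP24h replicate 1 or BMP24h replicate 3, in batch 2 alone, or with the analysis of variance of the Methods.

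**Figure D4:**
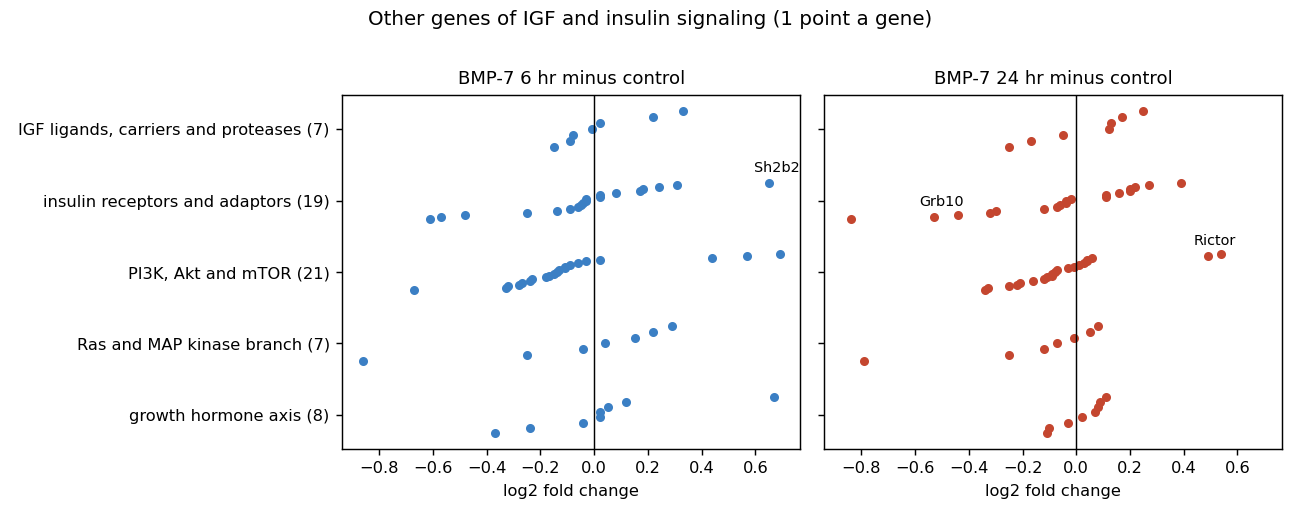
Log2 fold change against control (x axis) at 6 hr (left) and 24 hr (right) of 62 other genes of IGF and insulin signaling, 1 point a gene at its brightest probe set, in 5 lists (y axis, number of genes in brackets; points are ordered by value within a list). Points lie on both sides of 0 in every list, with Grb10 at -0.53 at 24 hr and Sh2b2 at 0.65 at 6 hr.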

How the data were processed

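Per the labels and the study's methods, the authors summarized each array to log2 values by RMA (version not given in the sources used here) in Partek Genomics Suite 6.5 and then took out the difference between 2 processing batches. In the deposited log2 table the batch means of any probe set were within 6.7e-05 of each other. Batch 1 (10 µg of cRNA) held replicate 1 of every condition, and batch 2 (5 µg) held replicates 2 and 3. Arrays give no read depth, so precision is limited by their number.

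Of 8799 probe sets, 59 controls were left out. Of the other 8740, 7006 name 1 gene, 308 several and 1426 none here, by the platform annotation. A linear model of condition plus batch, which leaves 5 residual degrees of freedom, was fitted to all 9 arrays with limma 3.58.1 (R 4.3.3). Benjamini-Hochberg adjustment ran over all 8740 probe sets. The fit was tested on simulated data. A gene outside the IGF system was taken at its brightest probe set and named if it passed the adjusted test or the thresholds of the Methods. For likeness, the 5 named probe sets with the highest Pearson correlation were given. Igfbp1, as the neighbor of Igfbp3, and the example markers were picked with their values known.

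The IGF genes and all gene lists were chosen with earlier results of these data known. Promoter sequences are from RefSeq (GRCr8), where all 9 genes were matched.

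Alternatives were the 2 compared conditions alone, array weights, batch 2 alone, removal of the dimmest 30% of probe sets, an intensity trend, averaging the probe sets of a gene, median centring, no batch term, a repeated quantile normalization, the replicate number as a block, the analysis of variance of the Methods, and leaving out each array.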

Additional observations from a re-analysis of the deposited data

How the results depend on the processing

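No log2 fold change of an IGF gene called in the main fit changed sign under any alternative. All 3 counts past the adjusted test stayed at 0 without each array. Array weights moved most counts: past the adjusted test there were 3 of the 23 probe sets for BMP24h minus control and 2 for BMP24h minus BMP6h (otherwise 0 each), and by the thresholds of the Methods 1 for BMP6h minus control and 3 for BMP24h minus BMP6h (otherwise 0 and 1). The 2 past the adjusted test were the Igfbp3 probe sets, with Igf1r L29232_at as the third against control, when 280 and 198 of 8740 probe sets passed. The Methods' thresholds added Igf1r L29232_at for BMP24h minus BMP6h and took Igfbp3 M31837_at alone at 6 hr, when 8% and 3.79% of all probe sets were called (otherwise 2.92% and 1.73%). Of the other signaling genes, array weights put 1 past the adjusted test for BMP24h minus control and 2 for BMP24h minus BMP6h, and an intensity trend 1 for BMP24h minus control. For BMP24h minus control the thresholds of the Methods called 1 probe set (Igfbp3 M31837_at) in batch 2 alone and with the analysis of variance of the Methods, against 2. Non-overlapping probe sets numbered 2 with median centring for BMP6h minus control (otherwise 1). The fewer arrays of batch 2 alone gave 6, and 5 for BMP24h minus BMP6h (otherwise 3). Shares of all are not given.

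Without each array in turn, the thresholds of the Methods called 0 to 2 probe sets for BMP6h minus control (2 without BMP6h replicate 3, when 6.97% of all probe sets were called), 1 to 3 for BMP24h minus control (1 without BMP24h replicate 1, control replicate 2 or control replicate 3, and 3 without control replicate 1 or BMP6h replicate 2, with 3.66% and 5.53% of all), and 1 to 3 for BMP24h minus BMP6h (3 without BMP6h replicate 2 or 3, with 2.94% and 8.28% of all). Non-overlap then held for 1 to 4, 6 to 9 and 3 to 6, again without shares of all. For all of these shifts the cause was not tested.

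By design each dissection gave a sample of every condition, but the labels do not say that the replicate number marks the dissection. The main fit had no dissection term, and whether replicate numbers pair the arrays was not settled. The check is void for replicate 1, the single array a condition in batch 1, since the batch means were made equal. For replicates 2 and 3 the deviations correlated at 0.23 and 0.53 (BMP24h with BMP6h), 0.06 and -0.04 (BMP24h with control) and -0.08 and 0.07 (BMP6h with control). These deviations are taken from condition means and the batch means are equal, so they are not free of replicate 1 either. BMP24h replicate 1 and BMP6h replicate 2, with different numbers, reached 0.55. With the replicate number as a block, the thresholds of the Methods called 1 probe set for BMP6h minus control (Igf1 M15481_g_at) and 2 for BMP24h minus BMP6h (Igfbp3 M31837_at and Igf1 X06107_i_at), when 4.75% and 3.89% of all were called, and the adjusted counts stayed at 0. The median of all probe sets stayed between -0.035 and 0.031 under the scalings tried. With 5 residual degrees of freedom, only large differences could pass the adjusted test.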
